A study of Mus musculus with 8 samples.

Results

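Ttr encodes transthyretin, a protein of plasma and cerebrospinal fluid. As 1 of 18193 genes named here on a mouse expression array, it was read by 4 of the 45101 probe sets, all of them annotated to Ttr and to no other gene, and 0 further probe sets paired Ttr with another gene. Total RNA of the hippocampus was hybridised to 8 one-colour Affymetrix arrays. MT arrays came from female Tg6799 mice, which carry mutant human APP and PS1 transgenes driven in neurons by mouse Thy1 promoter sequence, and LM arrays from their female littermates. LM4m, MT4m, LM8m and MT8m each held 2 arrays, at 4 or 8 months of age. The series text counts 4 subjects in each MT group and 2 in each LM group. The study's methods instead give 8 female Tg6799 mice in each group. Nothing states whether an MT array held a pool, so p-values measure the spread between these RNA samples, which may be technical. Ttr was chosen by its log2 difference between the genotypes in these same data. That difference is described with no test, whereas age and the interaction of age with genotype, which the choice did not use, were tested.

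Transthyretin circulates as a tetramer that carries thyroxine and, bound to retinol-binding protein, retinol. In the brain it is made above all by the epithelium of the choroid plexus, the tissue that secretes cerebrospinal fluid and lies in the ventricle beside the hippocampus, and elsewhere in the body mainly by the liver. It can bind amyloid-beta peptide, and mutant or misfolded human transthyretin forms amyloid of its own in other organs.

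Values are log2 expression values normalized by the authors. Array medians lay between 2.44 and 2.51 and correlations between arrays between 0.985 and 0.993, and precision is limited by having 2 arrays per group. The labels were checked by Thy1, whose sequence drives the transgenes. Thy1 lay between 9.53 and 9.96 on the 4 LM arrays, at 11.73 and 11.82 in MT4m and at 11.79 in MT8m replicate 2, whereas the library labelled MT8m replicate 1 had 9.90. This library also had a littermate-like 1.75 for Cst7, a microglial gene, against 5.92 to 8.03 on the other MT arrays, and 7.17 for the astrocyte gene Gfap, against 8.21 to 9.80, so differences of Ttr that rest on it are given with and without it. Of 10 measured hippocampal genes, Neurod6 and Zbtb20 were the brightest, with group means of at least 8.40, and Tdo2 the dimmest, at 2.51 to 2.88. At 4 months 3 of the 10 were lower in MT and 0 higher at an unadjusted p under 0.05 by limma. Among all genes 5.74% met that threshold in either direction. At 8 months 0 of the 10 did.

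The brightest Ttr probe set, 1454608_x_at, read 12.43 and 12.60 in LM4m, 10.97 and 10.67 in MT4m, 12.75 and 12.83 in LM8m, and 10.69 and 10.66 in MT8m, the first of these in the library labelled MT8m replicate 1. All 4 LM arrays were high and all 4 MT arrays low, with a space of 1.46 between the lowest LM and the highest MT array. Unlike its Thy1, the Ttr of the library labelled MT8m replicate 1 lay among the MT arrays. The suffix x marks probe sets in which some probes may also match other transcripts, a marks those shared by transcript variants of a gene, and s marks those shared by more than 1 transcript.

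Probe set 1459737_s_at read 12.05 and 12.11 in LM4m, 10.41 and 10.39 in MT4m, 12.18 and 12.47 in LM8m, and 10.39 and 10.002 in MT8m. Probe set 1455913_x_at read 11.93 and 11.85 in LM4m, 10.20 and 9.67 in MT4m, 12.17 and 12.20 in LM8m, and 9.67 and 10.003 in MT8m. Probe set 1451580_a_at read 11.60 and 12.08 in LM4m, 9.34 and 8.95 in MT4m, 11.99 and 12.55 in LM8m, and 9.15 and 8.79 in MT8m. By the labels, the genotypes did not overlap in any of the 4 probe sets. The space between them was 1.64 for 1459737_s_at, 1.65 for 1455913_x_at and 2.26 for 1451580_a_at. This separation depends on the label of MT8m replicate 1, whose Thy1 was littermate-like. That library read below MT4m replicate 1 in each probe set, so the genotypes would overlap if it were counted as LM. Among all 45037 probe sets that are not array controls, every MT array lay below every LM array in 1.81%. The choice of Ttr rested on this contrast, so nothing is read from the count of 4.

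**Figure D1:**
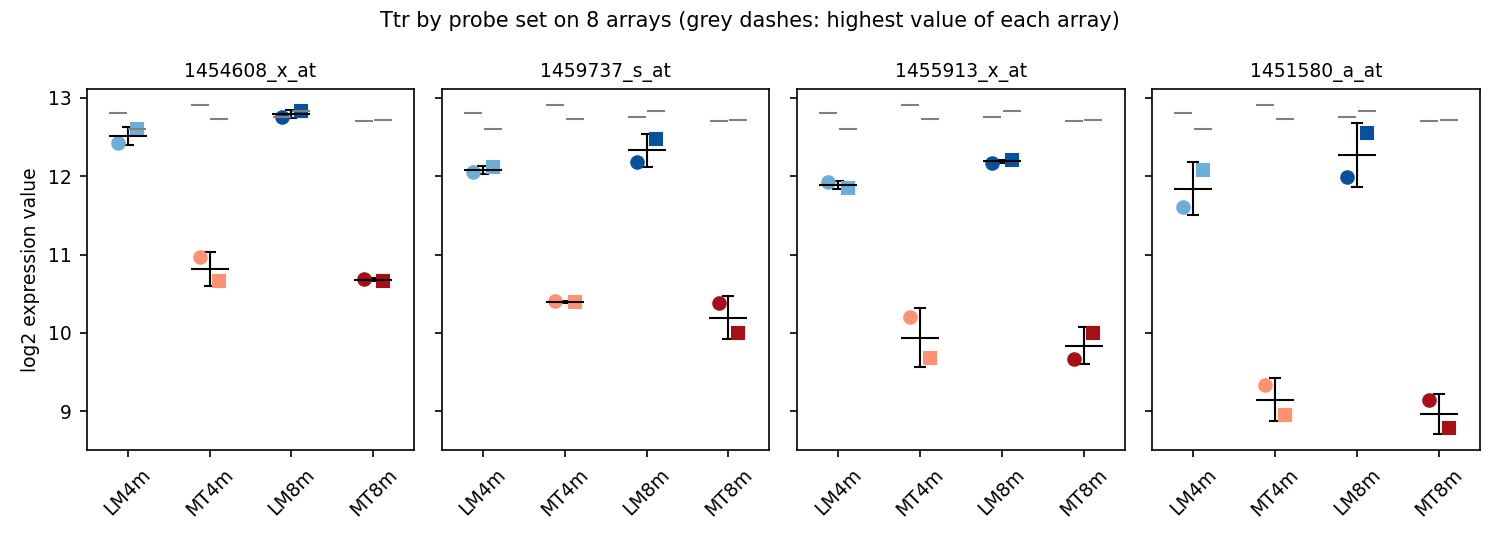
Log2 expression value (y axis) of the 4 Ttr probe sets (panels) on single arrays, arranged along the x axis by group. Replicates 1 and 2 are circles and squares, the bar is the group mean with its SD (n = 2) and the grey dash marks the highest value of that array; LM values sit between 11.60 and 12.83, close to the dashes, and MT values between 8.79 and 10.97.

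With all arrays, the 4 probe sets put the group means in the order LM8m, LM4m, MT4m, MT8m. Without the library labelled MT8m replicate 1 the MT groups changed places in 1455913_x_at, where the remaining MT8m array read 10.003 against an MT4m mean of 9.94. For 1454608_x_at the means were 12.79 ± 0.05 (SD, n = 2), 12.51 ± 0.12, 10.82 ± 0.21 and 10.68 ± 0.02, and for 1451580_a_at they were 12.27 ± 0.40, 11.84 ± 0.34, 9.15 ± 0.27 and 8.97 ± 0.26. Averaged over the 4 probe sets, Ttr was 12.39 ± 0.17 in LM8m, 12.08 ± 0.11 in LM4m, 10.07 ± 0.22 in MT4m and 9.92 ± 0.08 in MT8m. The LM groups and the MT groups are neighbours in this order that did not pass a test against each other, as given with the age tests, and the step between LM4m and MT4m was larger than any spread between replicates.

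Described as a difference of MT minus LM averaged over ages, Ttr was 3.74-fold lower in MT by 1454608_x_at (log2 difference -1.90 ± 0.10 SE), 3.75-fold by 1459737_s_at (-1.91 ± 0.12), 4.44-fold by 1455913_x_at (-2.15 ± 0.13) and 7.99-fold by 1451580_a_at (-3.00 ± 0.18). This direction opposes that of the gene tables published with the study, in which the genotype names of the same arrays are exchanged. It follows the sample labels, with which Thy1 went on all arrays but the library labelled MT8m replicate 1. Without that library the averaged difference was -1.91, -2.00, -2.07 and -3.09 for these probe sets, in the same order. Because the arrays measure bulk tissue, fewer Ttr-expressing cells and less Ttr RNA per cell cannot be told apart.

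By age, the difference of MT minus LM was -1.70 ± 0.14 at 4 months and -2.11 ± 0.14 at 8 months for 1454608_x_at, and -2.69 ± 0.25 and -3.30 ± 0.25 for 1451580_a_at. The folds ran from 3.21 to 6.47 at 4 months and from 4.32 to 9.87 at 8 months. Probe set 1451580_a_at gave the largest fold at both ages. At 8 months the difference was -2.13, -2.33, -2.18 and -3.48, from the brightest to the dimmest probe set, when the library labelled MT8m replicate 1 was left out, and the last is an 11.2-fold difference.

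**Figure D2:**
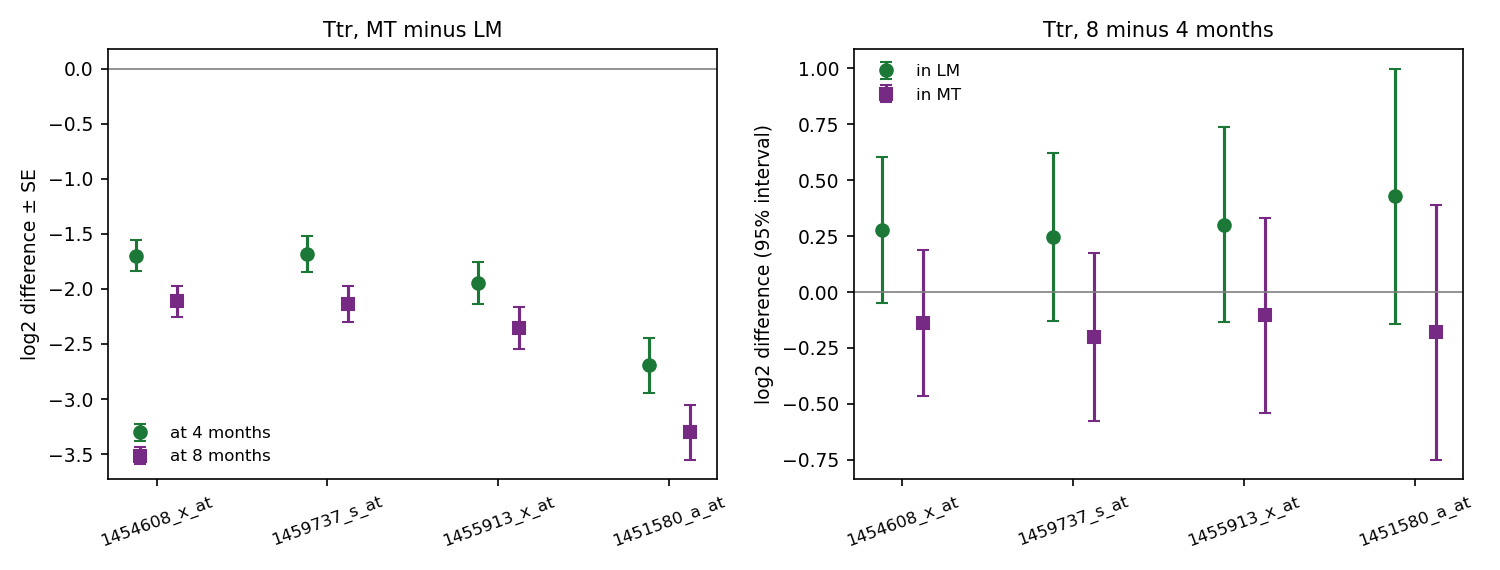
Log2 difference (y axis) of each Ttr probe set (x axis), as MT minus LM at 4 and 8 months with its SE (left) and as 8 minus 4 months in LM and MT with its 95% interval (right). The genotype differences run from -1.68 to -3.30, and every interval of an age difference includes 0.

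The LM arrays read Ttr at or near the top of the measured scale. The highest value on an array lay between 12.6 and 12.9, and 1454608_x_at was that highest value on LM4m replicate 2 and on both LM8m arrays. On LM4m replicate 1 it lay 0.38 below the top. Only 2 of the 45101 probe sets read higher there, whereas 101 to 158 read higher on the MT arrays, where it lay 1.94 to 2.07 below the top. These counts give a position on the scale and not an amount of RNA, since probe sets differ in how well they bind.

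The other probe sets of Ttr also came near the top in LM. On the LM arrays 1459737_s_at lay 0.35 to 0.76 below the highest value, 1455913_x_at 0.58 to 0.88 and 1451580_a_at 0.27 to 1.20. On the MT arrays the same 3 lay 2.31 to 2.72, 2.70 to 3.06 and 3.55 to 3.94 below it. Of the 16 to 25 probe sets within 1 log2 unit of the top on an LM array, 3 were Ttr on LM4m replicate 1 and 4 were Ttr on each of the other LM arrays, and no Ttr probe set was that high on an MT array. Whether these values were limited by the range of the scanner was not tested, and no scanner files were used here.

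The 4 probe sets lay close together in LM and apart in MT. From the highest to the lowest of them the distance on an array was 0.74 ± 0.08 (SD, n = 4) in LM, with a range of 0.62 to 0.82, and 1.69 ± 0.14 in MT, with a range of 1.55 to 1.88. As a description of the contrast by which Ttr was chosen, the genotypes did not overlap in this distance. In MT the lowest probe set was 1451580_a_at on all 4 arrays, whereas in LM it was 1451580_a_at on LM4m replicate 1 and LM8m replicate 1 and 1455913_x_at on the others. The brightest probe set exceeded 1451580_a_at by 0.60 ± 0.25 in LM and 1.69 ± 0.14 in MT.

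Against the other probe sets the brightest kept a more even lead. It exceeded 1455913_x_at by 0.61 ± 0.10 in LM and 0.86 ± 0.18 in MT, with overlapping ranges (0.50 to 0.75 and 0.66 to 1.03). It exceeded 1459737_s_at by 0.45 ± 0.10 in LM and 0.45 ± 0.19 in MT. These 2 bright probe sets therefore gave the same genotype difference to within its SE, and the third was close to them. For each log2 unit in the mean of the other 3 probe sets across the 8 arrays, 1451580_a_at moved by 1.51, 1455913_x_at by 0.93 and the brightest pair by 0.81 each.

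**Figure D3:**
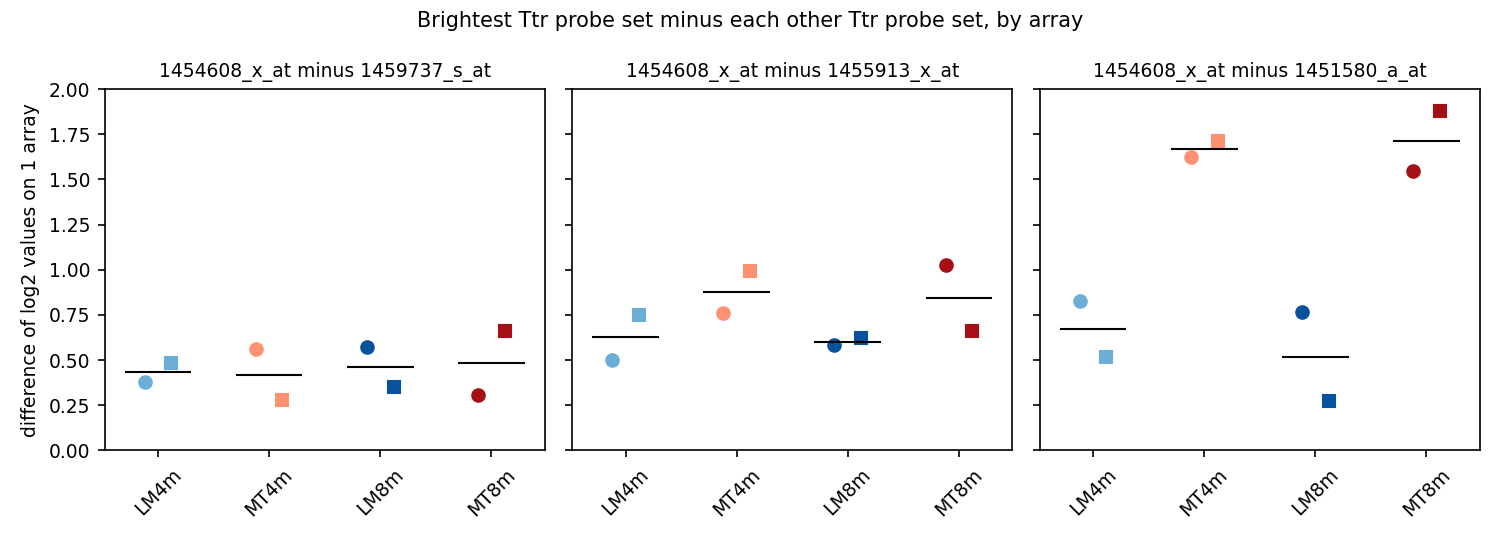
Log2 value of 1454608_x_at minus that of each other Ttr probe set (panels, y axis), 1 point per array, placed along the x axis by group with the group mean as a line. For 1451580_a_at the LM arrays lie between 0.27 and 0.82 and the MT arrays between 1.55 and 1.88, whereas for 1459737_s_at both genotypes lie between 0.28 and 0.66.

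Spread between replicates also differed among the probe sets. The within-group SD was 0.12 for 1454608_x_at, 0.17 for 1459737_s_at, 0.22 for 1455913_x_at and 0.32 for 1451580_a_at, and the last was wider than that of 91.7% of all probe sets. Over the 8 arrays each pair of Ttr probe sets correlated at r of 0.974 to 0.995, a description in which the arrays form 1 cluster per genotype. After each group mean was taken off, r ranged from -0.38 to 0.77. The pairs of 1451580_a_at with 1454608_x_at and with 1459737_s_at had the highest of these values (0.77 each), while 1459737_s_at and 1455913_x_at had the lowest. The probe sets thus went together on genotype, and less so on the small deviations within a group.

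The question of age was whether Ttr differs between 4 and 8 months, in either genotype. All 4 probe sets were higher at 8 months in LM, by 0.25 to 0.43 log2 units, and lower at 8 months in MT, with differences of -0.10 to -0.20. No difference passed. Without the library labelled MT8m replicate 1 the age difference in MT was -0.15, -0.40, 0.06 and -0.36 for the probe sets from brightest to dimmest, so that 1 of them changed sign, and none passed (lowest limma adjusted p = 0.706). For 1454608_x_at the age difference was 0.28 in LM (95% interval -0.05 to 0.60, limma adjusted p = 1), -0.14 in MT (-0.46 to 0.19, adjusted p = 0.929) and 0.07 averaged over genotypes (-0.16 to 0.30, adjusted p = 0.943). For 1451580_a_at the averaged difference was 0.12 (-0.28 to 0.53, adjusted p = 0.942). Leaving out that library, the averaged difference was 0.06, -0.07, 0.18 and 0.03, in the same order of probe sets, and none passed.

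In LM the arrays of 8 months lay above those of 4 months in 3 of the 4 probe sets, the exception being 1451580_a_at, and 15% of all probe sets separate in this way. In MT the arrays of 8 months lay below those of 4 months in 1 of 4, against 16.5% of all probe sets. The 4 probe sets read the same RNA, so they are not replicates of each other. By limma 0 of 4 passed in each age contrast, also at an unadjusted p under 0.05, at which 3.45% of all probe sets lay in LM, 5.7% in MT and 6.48% in the average. After adjustment 0% of the 45037 probe sets passed in any of these contrasts.

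The genotype difference was larger at 8 than at 4 months in all 4 probe sets, but the interaction did not pass. It was -0.42 (95% interval -0.87 to 0.04, limma adjusted p = 1.00) for 1454608_x_at, -0.45 for 1459737_s_at, -0.40 for 1455913_x_at and -0.61 (-1.41 to 0.20, adjusted p = 1.00) for 1451580_a_at. The smallest unadjusted p among the Ttr tests of age and interaction was 0.0711. Of all probe sets, 2.58% had an unadjusted p under 0.05 for the interaction and 0% passed. Without the library labelled MT8m replicate 1 the interaction was -0.43, -0.64, -0.24 and -0.79 for the probe sets from brightest to dimmest, and none passed (adjusted p = 0.999 for each).

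The genes whose pattern was most like that of Ttr were found by Pearson's r with the mean of the Ttr probe sets over the 8 arrays, with 1 probe set for each of 18192 genes. The 10 highest were Ecrg4 (0.990), Vat1l (0.985), the potassium channel gene Kcnj13 (0.98), the chloride channel gene Clic6 (0.973), coagulation factor F5 (0.973), the folate receptor gene Folr1 (0.970), the tight junction gene Cldn2 (0.969), Wfdc2 (0.964), Pigyl (0.964) and Calml4 (0.963). Of these, 7 are in a list of 22 measured choroid plexus genes. Every MT array lay below every LM array in all 10, against 2.42% of all genes. Choosing genes by r with Ttr nearly fixes this separation, so nothing is read from it. Over all genes, r was above 0.9 for 0.335%, against 15 of the 22 choroid plexus genes. Since the arrays fall into 2 clusters by genotype, r measures mostly that step, and the list was written with the published gene tables of these arrays known.

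Ecrg4 read 7.53 and 7.74 in LM4m, 4.76 and 4.49 in MT4m, 7.64 and 8.83 in LM8m, and 4.74 and 4.61 in MT8m. Vat1l read 4.34 and 4.54 in LM4m, 3.52 and 3.30 in MT4m, 4.42 and 4.76 in LM8m, and 3.59 and 3.39 in MT8m. As with Ttr, the library labelled MT8m replicate 1 lay among the MT arrays in both. Pigyl followed Ttr on a smaller scale, with 6.01 to 6.10 in LM and 5.72 to 5.81 in MT. At the other end Cabyr (r of -0.974), Gm11267 (-0.967), 4933428G20Rik (-0.915), Eml6 (-0.903) and Angptl1 (-0.903) ran opposite to Ttr. The largest averaged genotype difference among them was 0.425 log2 units, for Eml6.

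Markers of the choroid plexus moved with Ttr. Averaged over ages, 10 of the 22 measured list genes were lower in MT by limma and 0 higher, against 0.0989% of all genes lower, and every MT array lay below every LM array in 19 of 22, against 2.42% of all genes. This list was written with the published gene tables of these arrays known, and Ttr was chosen by the same contrast. The counts are therefore a description and not independent support. The median difference of the list was -1.64, with -0.01 over all genes. Its summed level, on the linear scale, ranged from 867 to 1029 in LM4m, 337 to 367 in MT4m, 945 to 1797 in LM8m and 326 to 341 in MT8m. Bright genes weigh most in this sum, and in MT these were Htr2c (group means 6.58 and 6.34) and Trpm3 (5.85 and 6.17). Lmx1a had group means under 2 throughout, Slc4a5 in both MT groups and Kcne2 in MT8m. Aqp1, Cldn2, Steap1 and Tmem72 lay at 2.08 to 2.40 in both MT groups, below the array medians of 2.44 to 2.51. Also below them were Otx2 (2.37) and Kcne2 (2.17) in MT4m, and Folr1 (2.24) and Sostdc1 (2.23) in MT8m. The part of choroid plexus tissue in the Ttr result was not tested.

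With 1 array left out, the number of passing list genes fell for most choices of the array. The number of calls over all probe sets also varied with that choice. Such a fit leaves 1 array in a group, so its counts are not read. Without the library labelled MT8m replicate 1 the median difference of the list was -1.63. Among list genes that passed with all arrays, the largest differences were those of Kcnj13 (10.6-fold, log2 difference -3.41 ± 0.30 SE) and Ecrg4 (9.75-fold, -3.28 ± 0.23). The difference of Otx2, a transcription factor of this epithelium, was -1.78 ± 0.20 (limma adjusted p = 0.0248).

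Within each of the 4 groups, the array with the higher mean of the choroid plexus list was also the one with the higher mean of Ttr. How many of all genes do the same was not counted, so nothing is read from this. After group means were taken off, 21 of the 22 list genes correlated above 0 with Ttr, with a median r of 0.61, against 49.9% of all genes and a median of -0.002. Trpm3 was the exception (-0.38). These genes were read on the same arrays, so they are not replicates of each other. By list means this r was 0.70 for choroid plexus. Among the other lists it ran from -0.95 for thyroid hormone transporters to 0.89 for thyroid hormone carriers, with 0.49 for hippocampus. With 2 arrays per group, a high value is thus not particular to choroid plexus. The sizes did not match in every group. LM8m replicate 2 exceeded LM8m replicate 1 by a median of 1.01 over the list genes, by 0.57 for Ttr probe set 1451580_a_at and by 0.07 for 1454608_x_at. In MT4m, where all 4 Ttr probe sets were lower on replicate 2 by 0.02 to 0.53, the list genes were lower by a median of 0.09. On that replicate 9 of the 22 list genes were higher, against 52.3% of all probe sets.

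**Figure D4:**
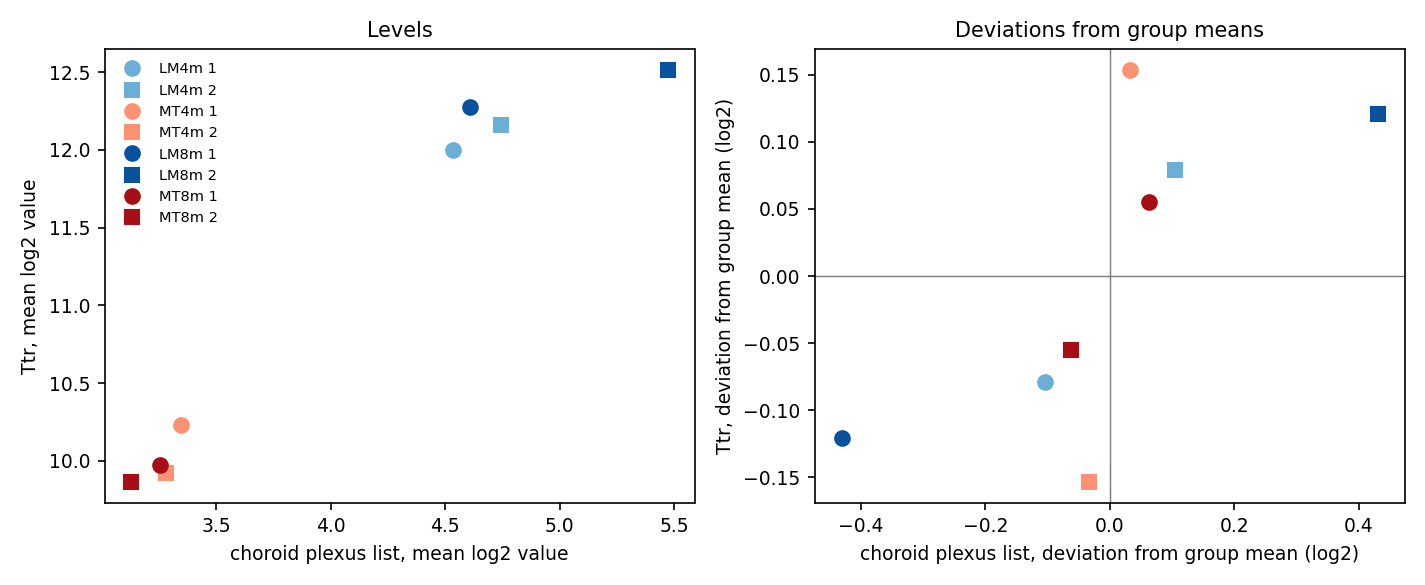
Mean log2 value of the 4 Ttr probe sets (y axis) against that of 22 choroid plexus genes (x axis) on each of the 8 arrays, as levels (left) and as deviations from the group mean (right). The LM arrays lie between 12.00 and 12.51 for Ttr and 4.53 and 5.47 for the list, the MT arrays between 9.86 and 10.23 and between 3.13 and 3.34, and in each group both deviate in the same direction.

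Genes of neighbouring tissues had smaller median differences, and with all arrays 0 of their members passed by limma. For 12 genes of ependyma, the ciliated lining of the ventricles, the median averaged difference was -0.50, with 9 lower and 0 higher at an unadjusted p under 0.05, a threshold that 6.72% of all genes met in either direction. For 12 genes of the meninges it was -0.60, with 3 lower, and Igf2, also made by choroid plexus, was the largest (-1.94 ± 0.27, adjusted p = 0.0892). Without the library labelled MT8m replicate 1 Igf2 passed (-2.11 ± 0.29, limma adjusted p = 0.0453), as did 142 of all probe sets, and so did Wfs1 (-0.84 ± 0.12, adjusted p = 0.0461), a gene of hippocampal pyramidal cells that did not pass with all arrays (-0.44 ± 0.29). The 11 genes for plasma proteins of the liver, the other main source of transthyretin, lay at group means under 3 in every group and had a median of -0.01. Albumin (Alb) differed by 0.01 ± 0.09 and apolipoprotein A-I (Apoa1) by -0.01 ± 0.09.

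Transthyretin carries retinol in a complex with retinol-binding protein, encoded by Rbp4. Rbp4 read 5.56 and 5.16 in LM4m, 4.93 and 4.35 in MT4m, 4.79 and 5.43 in LM8m, and 4.54 and 4.40 in MT8m. Its MT values were low, but MT4m replicate 1 lay above LM8m replicate 1, so the genotypes overlapped, and its averaged difference of -0.68 ± 0.18 did not pass (adjusted p = 0.746). Stra6, the receptor that takes up retinol from this complex, differed by -0.07 ± 0.11. Of 21 listed retinoid genes 20 were measured. Against 0.0989% of all genes that passed lower in MT, 1 of the 20 passed, also lower. This was Rdh5, a retinol dehydrogenase, at 4.22 to 5.11 in LM and 2.67 to 3.16 in MT (-1.63 ± 0.14, adjusted p = 0.00997). It did not pass without LM4m replicate 2, MT4m replicate 1 or MT8m replicate 2.

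No other retinoid gene passed, although every MT array also lay below every LM array in Aldh1a3 and in the receptor gene Rxra. With Rdh5 this makes 3 of 20, against 2.42% of all genes, and Aldh1a3 had group means of 2.03 to 2.24, below the array medians. Averaged differences of the aldehyde dehydrogenases that make retinoic acid were -0.66 ± 0.28 for Aldh1a1, -0.82 ± 0.39 for Aldh1a2 and -0.15 ± 0.09 for Aldh1a3. The difference of Aldh1a1 was -1.41 ± 0.39 at 4 months and 0.10 ± 0.39 at 8 months, and its interaction did not pass (1.51 ± 0.56, adjusted p = 1.00). The 6 retinoic acid and retinoid X receptor genes lay between -0.24 and 0.21. At an unadjusted p under 0.05, 4 of the 20 retinoid genes were lower in MT and 0 higher, against 6.72% of all genes in either direction.

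Of the thyroid hormone pathway, 21 of 25 listed genes were measured and 0 passed in the averaged genotype contrast, with 1 at an unadjusted p under 0.05, a smaller share than the 6.72% of all genes. This was the thyroxine transporter gene Slco1c1, at 7.50 to 7.71 in LM and 6.96 to 7.33 in MT (-0.43 ± 0.09, adjusted p = 0.452). Slco1c1 is expressed by brain capillaries and choroid plexus. The other carriers of thyroid hormone, albumin and the thyroxine-binding globulin gene Serpina7, had group means under 2, and Crym, which binds the hormone inside cells, differed by 0.15 ± 0.10.

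Downstream of the carriers, Dio2, the deiodinase that makes active hormone in the brain, differed by -0.16 ± 0.12 between genotypes. With age it went from 7.53 and 7.09 in LM4m to 6.75 and 6.64 in LM8m, and from 7.19 and 7.12 in MT4m to 6.65 and 6.40 in MT8m. The groups of the ages did not overlap in either genotype, but the averaged age difference of -0.62 did not pass (adjusted p = 0.459). In MT 16.5% of all probe sets separate in this direction. For LM the share in this direction was not counted, and 15% separate in the other direction. The receptor genes differed by 0.02 ± 0.10 for Thra and 0.11 ± 0.14 for Thrb, whose group means of 1.79 to 2.19 lay below the array medians, and the hormone-responsive genes Klf9, Hr and Nrgn by -0.18 ± 0.12, -0.14 ± 0.09 and -0.15 ± 0.14. Nrgn differed by -0.30 ± 0.11 (adjusted p = 0.571) with the library labelled MT8m replicate 1 left out.

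Of the factors that drive the Ttr promoter in mouse liver, 6 were measured, and the hepatic ones Hnf4a, Foxa1, Foxa2 and Foxa3 had group means under 3. Cebpa differed by 0.48 ± 0.19 and Cebpb by -0.01 ± 0.13, and 0 passed, with 1 higher at an unadjusted p under 0.05, against 6.72% of all genes in either direction. The average of Cebpb joins -0.53 ± 0.19 at 4 months and 0.51 ± 0.19 at 8 months, and its interaction did not pass (1.04 ± 0.27, adjusted p = 1.00). Receptors reported to take up transthyretin gave -0.09 ± 0.11 for Lrp1 and 0.12 ± 0.09 for Lrp2, the latter at group means under 2.

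Other secreted proteins that bind amyloid-beta had a median difference of -0.01 over 9 genes. Clu differed by 0.00 ± 0.18, Apoe by 0.38 ± 0.17, Cst3 by 0.25 ± 0.17 and Ptgds, which is also made by meninges and choroid plexus, by -0.83 ± 0.40. B2m, the light chain of MHC class I, differed by 0.73 ± 0.41. None passed, and 0 of the 9 had an unadjusted p under 0.05. Leaving out the library labelled MT8m replicate 1 gave a median of 0.22, with 0.22 ± 0.12 for Clu, 0.58 ± 0.12 for Apoe and 0.43 ± 0.15 for Cst3, and B2m passed, higher in MT (1.31 ± 0.11, limma adjusted p = 0.00601). The mouse App probe set lay between 11.06 and 11.36 on all 8 arrays.

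**Figure D5:**
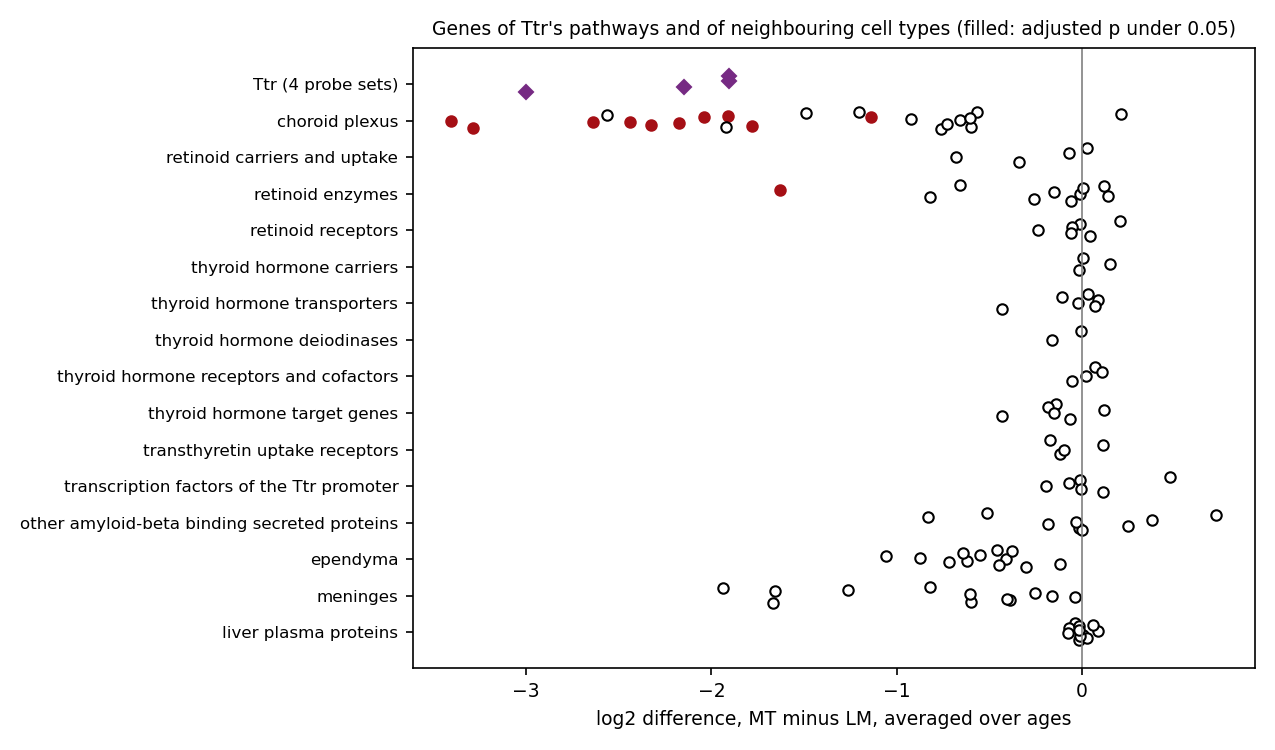
Log2 difference MT minus LM averaged over ages (x axis) for the 4 Ttr probe sets (diamonds) and for each measured gene (circles) of 15 lists (y axis), filled where the adjusted p was under 0.05. Ttr lies between -1.90 and -3.00, within the range of the choroid plexus genes (-3.41 to 0.21), and the thyroid hormone genes lie between -0.43 and 0.15.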

How the data were processed

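Total RNA of mouse hippocampus had been hybridised to 8 Affymetrix arrays. The authors ran RMA from the affy package of R, and the deposited values are log2 expression. The affy version is not given in the sources used here. They ran from 0.979 to 12.9, with array medians of 2.44 to 2.51. These medians are low for RMA output and the constant behind them was not found. Depth does not apply to arrays.

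Genes were named from the platform annotation, with symbols updated by Entrez identifier, and 64 control probe sets were left out, leaving 45037. Group means of all 8 arrays were fitted with limma 3.58.1 in R 4.3.3 (lmFit and eBayes, 4 residual degrees of freedom), two-sided, adjusted by Benjamini-Hochberg over all probe sets and passing under 0.05. Every other gene was represented by its brightest probe set. Ttr and the lists were chosen with earlier results of these data known. Genes named are all Ttr probe sets, label checks, the 10 most and 5 least alike, list genes that passed or differed most, and genes that define a role. Some listed genes were not analysed here. The fit was tested on simulated data. Alternatives were the median of the Ttr probe sets, cyclic loess, a filter on dim probe sets, a trended robust prior, fewer groups in the fit, title numbers as a block, any probe set of a gene, and each array left out.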

Additional observations from a re-analysis of the deposited data

How the results depend on the processing

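With the median over the Ttr probe sets in place of the brightest one, the genotype difference was -1.87 at 4 months, -2.33 at 8 months and -2.10 averaged over ages. With 1 array left out, the difference by the brightest probe set ranged from -1.85 to -1.55 at 4 months, from -2.15 to -2.07 at 8 months and from -1.98 to -1.83 averaged. The count of passing choroid plexus genes then ranged from 1 to 13 and that of thyroid hormone and retinoid genes from 0 to 1, where 1 gene passed with all arrays. The age differences and the interaction of the brightest Ttr probe set passed under none of the alternatives run, with limma adjusted p of at least 0.904. The age difference in MT ranged from -0.29 to 0.01 and the averaged one from -0.01 to 0.14 with 1 array left out, so their sign is not fixed. Cyclic loess, the filter on dim probe sets, the trended robust prior and fits of fewer groups moved no Ttr age result past the threshold.

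The sample titles number LM arrays 1 and 2 and MT arrays 3 and 4 at each age. Deviations from the group means correlated at 0.24 for the LM numbers and -0.17 for the MT numbers. With 2 arrays per group both numbers of a genotype give the same value, so these values cannot decide whether the numbers pair the samples. The main fit used no pairing. With the title number as a replicate block the averaged age difference of Ttr was again 0.07 (limma adjusted p = 0.930), that in LM 0.28, that in MT -0.14 and the interaction -0.42, no Ttr call changed, and 0 probe sets passed in each age contrast, as without it. With the MT numbers crossed, chosen after seeing the data, 1 to 3 probe sets passed per contrast and 0 of them were Ttr.

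On LM arrays Ttr reads close to the highest values measured, and whether this limits its folds was not tested. With 2 arrays per group the intervals of the age differences are wide.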
